A study of Mus musculus with 2 samples.

Results

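To describe the amino acid arm of the stress response in Th1 cells with and without Chi3l1, 40 genes were followed, namely transcription factors and feedback genes around ATF4, enzymes of serine, asparagine, one-carbon, proline and cysteine metabolism, amino acid transporters, and cytosolic tRNA synthetases. They were picked by symbol as known members or targets of this pathway, and all 40 are among the 24421 genes listed in both deposited tables. One library was made from WT Th1 cells (Chi3l1+/+) and the other from Chi3l1 KO Th1 cells (Chi3l1-/-, from mice that lack chitinase 3-like 1), 1 sample per genotype. Both carry the C57BL/6J strain background, and both started from naïve CD4 T cells that were activated through CD3 and CD28 and skewed in culture toward Th1 with IL-12, IL-2 and an antibody against IL-4. The labels do not give the age or sex of the animals behind each library, the number of animals pooled, or the day of harvest, and naïve cells are not analysed here. The study's methods give an age range for all its mice, the use of both sexes and alternative lengths of culture, but not by library.

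ATF4 is a basic leucine zipper transcription factor whose protein is made when the kinases that phosphorylate eIF2α slow general translation, so its activity is set largely by translation of its mRNA and less by the amount of that mRNA. With C/EBP partners it turns on genes for amino acid synthesis, uptake and tRNA charging. Activated T cells are known to depend on serine, one-carbon units and imported amino acids while they divide, and they express many of these genes without any added stress.

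Values are on the log2 scale of a normalized count to which 1 was added, and a difference is always the value of the KO-labelled library minus that of the WT-labelled library. Read counts rebuilt from the values summed to 70638495 in the WT-labelled library and 62991545 in the KO-labelled library. With 1 library per genotype no difference below has a replicate check and no test was possible. The 95% intervals given are exact binomial (Clopper-Pearson) intervals from the rebuilt reads, taken on the ratio of normalized counts without the added 1, and they hold counting error only, not the spread between animals or cultures. The targeted gene, listed as Chil1, went against the labels, with 1 rebuilt read in the library labelled WT and 103 in the library labelled KO. The tables give 1 value per gene, so reads of a disrupted transcript cannot be told from those of an intact one, and the libraries are called by their labels throughout. Every direction given below rests on those labels.

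Of T cell and Th1 markers (Cd3e, Cd3g, Cd4, Cd5, Lck, Tbx21, Ifng, Il12rb2 and Cxcr3), all 9 were present in both libraries, with summed normalized counts of 222455 and 211944 in the WT-labelled and KO-labelled library, where 2 were higher and 7 lower in the latter. The 2 higher were Ifng, the Th1 cytokine, at 11.72 and 13.04 (1.32), and Il12rb2 (0.445). The 7 lower were Cxcr3 (-1.23), Cd5 (-0.525), Cd4 (-0.374), Cd3g (-0.292), Tbx21 (-0.265), Cd3e (-0.078) and Lck (-0.002). B cell markers summed to 939 and 1731 and were higher in the KO-labelled library for 5 of 5 genes, macrophage and dendritic cell markers summed to 577 and 531 with Adgre1 at 0 in both, Lyz2 (-3.56), Itgax (-2.91) and Cd68 (-0.43) lower and Flt3 (1.86) and Csf1r (0.83) higher. The neutrophil markers summed to 80.3 and 4.79 and were lower for 5 of 5 genes, with S100a8, S100a9, Elane and Ngp at 0 in the KO-labelled library. CD8 T cell markers summed to 812 and 807, with Cd8a higher (0.60) and Cd8b1 lower (-0.47). In such bulk libraries, fewer cells of a type and less RNA per cell cannot be told apart. The part of these other cells in the differences below was not tested.

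The DNA element that binds ATF4 with a C/EBP partner has the core TGATGNAA, and it was looked for on both strands of the RefSeq promoters (GRCm38.p6, 250 bases before to 50 bases after the start). Of the 40 genes, 33 are in that promoter table, while Eif4ebp1, Aldh1l2, Cth, Slc7a3, Wars, Nars and Cars are not. The core was found for 10 of the 33 (30.3%), namely Chac1, Trib3, Slc7a11, Yars, Asns, Gars, Aars, Pycr1, Vldlr and Got1, against 4.51% of all 27025 genes in the table. These genes were picked as ATF4 targets, so a share above that of all genes is not independent of the choice. The cAMP response element TGACGTCA, which no stretch that matches the core can also match in place, was found for 0 of the 33 genes and for 2.03% of all genes. The bases before the start are shown for a feedback gene that was higher in the KO-labelled library, Chac1, and a transporter that was lower, Slc7a11. Sequences are printed 5′ to 3′ along the gene's own strand, with capitals marking the core or its reverse complement.
Chac1 (chr2:119350992-119351241, plus strand): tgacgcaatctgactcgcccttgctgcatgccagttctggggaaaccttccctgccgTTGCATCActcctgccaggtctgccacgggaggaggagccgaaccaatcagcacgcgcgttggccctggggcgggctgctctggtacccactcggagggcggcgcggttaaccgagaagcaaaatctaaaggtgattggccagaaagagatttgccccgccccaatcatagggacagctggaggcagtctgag
Slc7a11 (chr3:50443614-50443863, minus strand): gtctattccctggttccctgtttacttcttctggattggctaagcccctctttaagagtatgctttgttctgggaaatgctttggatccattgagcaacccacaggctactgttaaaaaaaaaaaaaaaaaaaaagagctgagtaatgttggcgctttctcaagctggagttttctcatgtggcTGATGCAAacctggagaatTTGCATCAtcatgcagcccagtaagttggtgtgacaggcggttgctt

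The core lies 193 bases before the start in Chac1, on the opposite strand. Slc7a11 holds it on both strands, 66 and 47 bases before the start. In Asns it lies 23 bases before the start. Windows of 30 bases around the core are shown for Asns, Pycr1, Got1 and Gars, all higher in the KO-labelled library, to set the shared letters side by side. Those of Trib3 and Vldlr, both lower (-0.10 and -0.13), and of Yars (0.04) are not shown. Since the windows shown were all taken from higher genes, the display cannot tie the core to a direction.
Asns (chr6:7693214-7693243, minus strand): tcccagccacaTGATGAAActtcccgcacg
Pycr1 (chr11:120643833-120643862, minus strand): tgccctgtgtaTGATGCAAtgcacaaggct
Got1 (chr19:43524689-43524718, minus strand): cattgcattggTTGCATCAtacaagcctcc
Gars (chr6:55037960-55037989, plus strand): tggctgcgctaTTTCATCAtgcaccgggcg

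Of the 10 genes with the core, 7 were higher and 3 lower in the KO-labelled library, with a median log2 difference of 0.23 and a range from -0.58 for Slc7a11 to 0.53 for Asns. The 23 genes without it divided into 15 higher and 8 lower, with a median of 0.07. The 7 genes not in the promoter table divided into 6 higher and 1 lower, with a median of 0.38. Of all genes above 0 in both libraries, 48% were higher. No difference between these groups was tested. A match is a description of the letters and not of binding.

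Of all 40 genes, 28 were higher and 12 lower in the KO-labelled library, against 48% of the 14666 genes above 0 in both libraries that were higher. The median log2 difference of the 40 genes was 0.20, that of all genes above 0 in both libraries was -0.003, and that of the 8886 well expressed genes, those at 8 or more on the log2 scale in each library, was -0.01. Most differences were small. No gene of the 40 was higher by 2-fold or more, where 4.75% of genes above 0 in both libraries were, and 1 gene, Cbs, was lower by 2-fold or more, where 6.31% were. At 1.5-fold, Cth, Aldh1l2, Slc7a3 and Mthfd2 were higher (4 of 40, against 11.2% of genes above 0 in both libraries) and Cbs was lower (1 of 40, against 13.8%). Of the 34 genes that were well expressed, 24 were higher, against 48.8% of all well expressed genes. None of these 34 passed 2-fold, where 0.461% of well expressed genes were higher and 0.743% lower. At 1.5-fold, Slc7a3 and Mthfd2 were higher (2 of 34, against 3.95%) and 0 were lower (against 6.29%). The counting interval lay above 0 for 25 genes, below 0 for 9 and held 0 for 6. These intervals are narrow where reads are many. The share of all genes whose interval leaves out 0 was not counted, so these counts cannot set the 40 genes apart.

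**Figure D1:**
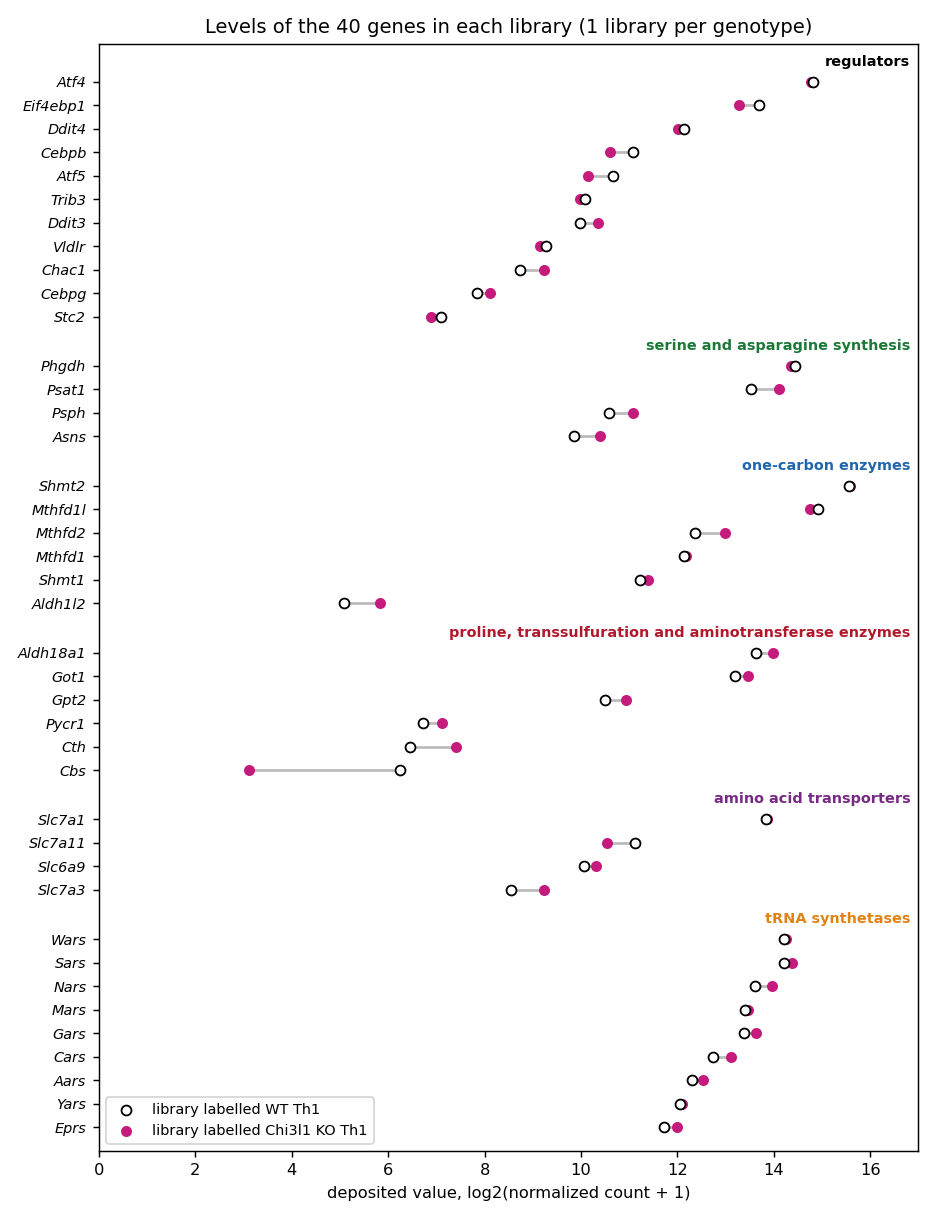
Deposited log2 values (x axis, log2 of a normalized count plus 1) of the 40 genes in the WT-labelled library (open circles) and the KO-labelled library (filled circles), grouped by role and joined by a grey line, 1 library per genotype. For most genes the circles lie close together, and the longest line belongs to Cbs, at 6.24 and 3.12.

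**Figure D2:**
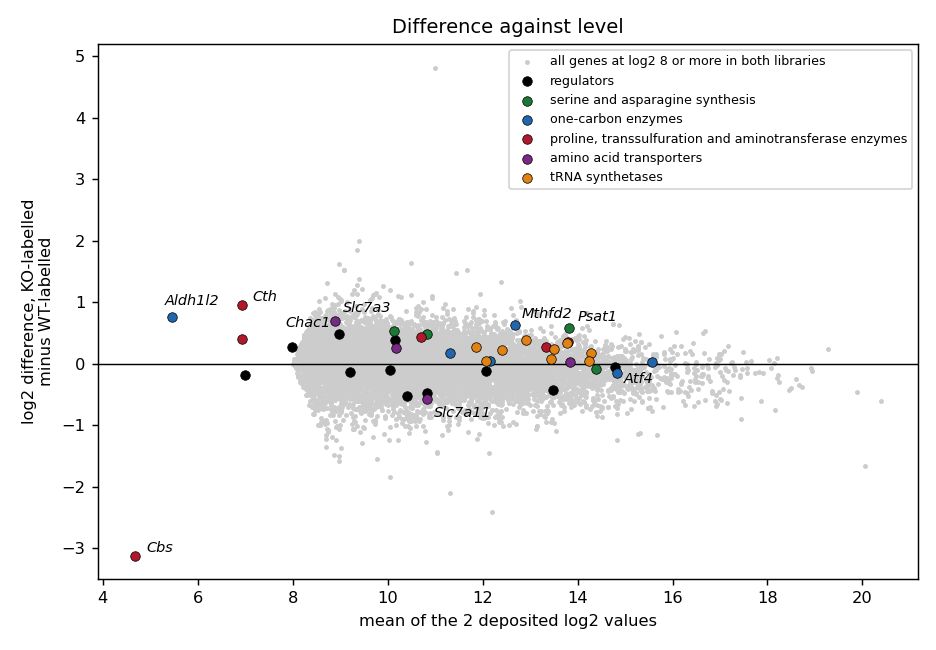
Log2 difference (y axis, KO-labelled minus WT-labelled) against the mean of both log2 values (x axis) for the 40 genes, coloured by role, over all 8886 well expressed genes (grey). Mthfd2 and Psat1 lie near the upper edge of the grey genes of their level, and Cbs lies lowest at -3.12.

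The direction depended on the level in the whole table, and the genes were therefore set beside others of like level. Of the 20 genes with a mean log2 value of 12 or more, 15 were higher in the KO-labelled library, where 36.5% of all 2669 genes of that level were, and their median log2 difference was 0.06 against -0.10. Of the 11 with a mean from 10 to under 12, 7 were higher, where 52.7% of genes of that level were, with medians of 0.25 and 0.02. Of 3 genes with a mean from 8 to under 10, 2 were higher (all genes 55.7%), of 4 from 6 to under 8, 3 were higher (all genes 51.2%), and of 2 from 4 to under 6, 1 was higher (all genes 47.9%).

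Among the regulators, Atf4 itself was nearly level between libraries, and the sign of its small difference depended on the scaling. Its log2 value was 14.81 in the WT-labelled library and 14.76 in the KO-labelled library, a difference of -0.05 (95% counting interval -0.07 to -0.02), and per kilobase of its longest transcript it was above 97.8% of the genes above 0 in both libraries. Atf5, a related factor that is also controlled by translation, was 10.67 and 10.14 (-0.53, interval -0.64 to -0.42). Cebpb, a C/EBP partner of ATF4, was 11.08 and 10.60 (-0.48), and Cebpg, the partner that lacks an activation domain, was 7.85 and 8.11 (0.26, interval 0.01 to 0.52). Cebpb shares 312 exonic bases with the more abundant Tmem189 on the other strand, at 12.17 and 11.90. Ddit3, which encodes the stress factor CHOP, was 9.97 and 10.36, a difference of 0.38 with an interval from 0.27 to 0.50. With the trend of differences with GC content removed (described below), Atf5 was at -0.08, Cebpb at -0.02 and Cebpg at 0.07, close to level, while Ddit3 was at 0.26.

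Feedback and effector genes downstream were also divided. Chac1, an enzyme that degrades glutathione, was 8.74 in the WT-labelled library and 9.22 in the KO-labelled library, from 441 and 618 rebuilt reads, with a difference of 0.48 (interval 0.31 to 0.66). Eif4ebp1, the translation repressor 4E-BP1, went the other way, with 13.70 and 13.27, a difference of -0.43 (interval -0.47 to -0.39). Trib3, a pseudokinase that restrains ATF4 and CHOP, was 10.09 and 9.99, and its interval from -0.23 to 0.02 held 0. Ddit4, the mTORC1 inhibitor REDD1, was 12.13 and 12.01 (-0.13), Vldlr, a lipoprotein receptor, 9.27 and 9.14 (-0.13), and Stc2, the secreted stanniocalcin 2, 7.09 and 6.90 (-0.19). The intervals of Vldlr and Stc2 held 0. In all, 3 of the 11 regulators and effectors were higher and 8 lower, with a median of -0.13, and with the trend of differences with GC content removed (below) 6 were higher and the median was 0.07. Of all genes above 0 in both libraries, 48% were higher on the deposited values.

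Serine and asparagine synthesis had 3 of 4 genes higher in the KO-labelled library, where 48.8% of all well expressed genes were. Psat1, the transaminase of the serine pathway, had a log2 value of 13.53 in the WT-labelled library and 14.10 in the KO-labelled library, a difference of 0.57 (interval 0.54 to 0.61), which is 1.49-fold. Psph, the phosphatase that releases serine, was 10.59 and 11.08 (0.49, interval 0.39 to 0.58). Asns, asparagine synthetase, was 9.86 and 10.39, from 958 and 1385 reads, a difference of 0.53 (interval 0.41 to 0.65). Phgdh, which catalyses the entry step from glycolysis into serine, stood apart from these, at 14.44 and 14.35, and its difference of -0.09 was above 0 under quantile normalization, Actb scaling and GC correction. Psph shares 452 exonic bases with the far more abundant Cct6a on the other strand, at 13.43 and 13.63. The median of the 4 genes was 0.51, and 0.46 with the GC trend removed. Per kilobase, Phgdh was the most abundant of the 4, with 11733 and 11023 normalized counts per kilobase, followed by Psat1 with 4513 and 6710, so the gap between these consecutive enzymes was narrower in the KO-labelled library.

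In one-carbon metabolism the mitochondrial enzymes differed in direction. Mthfd2, the mitochondrial methylenetetrahydrofolate dehydrogenase that is induced in dividing lymphocytes, was 12.36 in the WT-labelled library and 12.99 in the KO-labelled library, a difference of 0.63 (interval 0.58 to 0.68) or 1.54-fold, and of all genes with a mean log2 value of 12 or more 1.12% were higher by at least 1.5-fold. Shmt2, the mitochondrial serine hydroxymethyltransferase that feeds it, was the most abundant of all 40 genes per kilobase and was 15.56 and 15.58 (0.02). Mthfd1l, which makes formate in mitochondria downstream of Mthfd2, was 14.91 and 14.75 (-0.16, interval -0.18 to -0.13), and was above 0 under quantile normalization. The cytosolic enzymes Shmt1 (11.21 and 11.39, difference 0.18) and Mthfd1 (12.14 and 12.18, difference 0.04) were close to level, and the interval of Mthfd1 held 0. Aldh1l2, a mitochondrial formyltetrahydrofolate dehydrogenase, was low in both libraries, at 5.09 and 5.84 from 34 and 58 reads. Its difference of 0.75 had a wide interval, from 0.13 to 1.42, and 23% of genes with a mean from 4 to under 6 were higher by at least 1.5-fold. It also shares 1056 exonic bases with D10Wsu102e on the other strand, whose values of 10.29 and 10.41 were far higher, and since it is not stated whether strand was used in counting, its reads are uncertain.

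The largest differences were in transsulfuration, the route from homocysteine to cysteine. Cbs (chr17:31608894-31637238, minus strand), which catalyses its first step, was 6.24 in the WT-labelled library and 3.12 in the KO-labelled library, from 77 and 8 reads. The difference was -3.12, and the ratio of normalized counts without the added 1 was 9.71-fold lower (log2 interval -4.53 to -2.22). Among genes with a mean log2 value from 4 to under 6, 13.6% were lower by at least 2-fold. Cth (chr3:157894248-157925077, minus strand), the enzyme of the step after it, was higher, at 6.45 and 7.41 from 89 and 174 reads (0.96, interval 0.59 to 1.35), and 15.4% of genes with a mean from 6 to under 8 were higher by at least 1.5-fold. Both genes were low, and per kilobase Cbs stood above 10.2% and Cth above 32.4% of the genes above 0 in both libraries. Markers of other cells went both ways. Neutrophil markers, Lyz2, Itgax and Cd68 were also lower in the KO-labelled library, while B cell markers, Flt3 and Csf1r were higher. The part of such cells in the difference of Cbs was not tested.

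Of proline synthesis, Aldh18a1, the mitochondrial synthase of its precursor, was 13.62 and 13.98 (0.36, interval 0.32 to 0.39). Pycr1, the reductase of the last step, was 6.72 and 7.12 from 108 and 143 reads (0.40, interval 0.03 to 0.78). The aminotransferases were higher in the KO-labelled library too, with Gpt2, which makes alanine in mitochondria, at 10.49 and 10.92 (0.43) and Got1, the cytosolic aspartate aminotransferase, at 13.20 and 13.47 (0.27). Together with Cth and Cbs, 5 of these 6 enzymes were higher, against 48% of all genes above 0 in both libraries.

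The transporters differed in direction. Slc7a11, the cystine importer of system xc-, was 11.12 in the WT-labelled library and 10.54 in the KO-labelled library, from 2288 and 1535 reads. Its difference of -0.58 (interval -0.67 to -0.48) was 1.49-fold lower, just short of the 1.5-fold line, which 5.43% of genes with a mean from 10 to under 12 passed in this direction. Slc7a3, a cationic amino acid transporter, was 8.55 and 9.24 from 387 and 625 reads (0.69, interval 0.50 to 0.88), and 8.44% of genes with a mean from 8 to under 10 were higher by at least 1.5-fold. Its relative Slc7a1 was far more abundant, with 2035 and 2062 normalized counts per kilobase against 136 and 220, and was level at 13.84 and 13.85 (0.02, interval -0.01 to 0.05). Slc6a9, the glycine transporter GlyT1, was 10.05 and 10.31 (0.25). It shares 1429 exonic bases with Ccdc24 on the other strand, which was low, at 1.95 and 4.28.

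The tRNA synthetases, which load amino acids onto their tRNAs, were all higher in the KO-labelled library by small amounts, 9 of 9 with log2 differences from 0.04 to 0.38 and a median of 0.22. Of all genes with a mean log2 value of 12 or more, 36.5% were higher, and of those from 10 to under 12, 52.7%. Cars, for cysteine, had the largest difference, at 12.73 and 13.12 (0.38, interval 0.34 to 0.43), followed by Nars, for asparagine, at 13.62 and 13.96 (0.34). Eprs, for glutamate and proline, was 11.72 and 11.99 (0.27), Gars, for glycine, 13.39 and 13.63 (0.24), and Aars, for alanine, 12.31 and 12.52 (0.22). Sars, for serine, was 14.21 and 14.37 (0.16), and Mars, for methionine, was 13.40 and 13.47 (0.07). Wars, for tryptophan, which IFNγ is also known to induce, was 14.21 and 14.26 (0.05), and Yars, for tyrosine, was 12.06 and 12.10 (0.04, with an interval that held 0). The counting intervals of the other 8 lay above 0, and here too the share of all genes was not counted. The same 9 of 9 were higher after quantile normalization, after median-ratio or Actb scaling, and with the GC trend removed. That removal took Eprs to 0.09 and Aars to 0.44. Aars shares 1326 exonic bases with Exosc6 on the same strand, at 8.25 and 7.76, and Mars shares 68 with Ddit3 on the other strand.

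**Figure D3:**
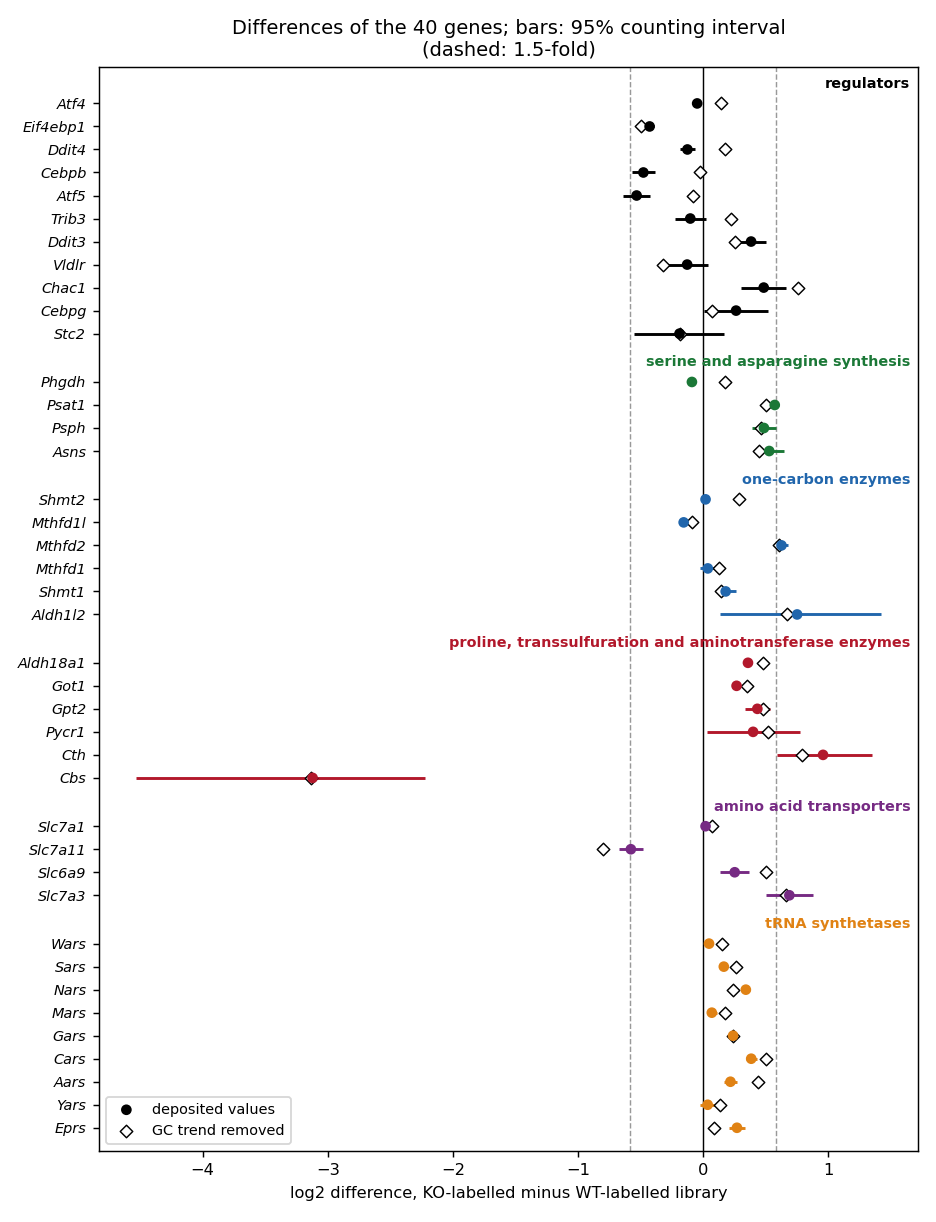
Log2 differences (x axis, KO-labelled minus WT-labelled) of the 40 genes from the deposited values (filled circles), with 95% counting intervals as horizontal bars, and with the GC trend removed (open diamonds). Dashed lines mark 1.5-fold, and the 9 tRNA synthetases lie between 0.04 and 0.38, all right of 0.

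Among 8579 well expressed genes, the difference was lower the higher the transcript's GC content (Spearman rho -0.53). This is a correlation across genes of the same libraries, which are not independent replicates. The median difference was 0.23 in the lowest of 20 GC bins and -0.45 in the highest. The 40 genes had a median GC content of 51.5%, near the 50.04% of the well expressed genes, and with the trend removed 32 of 40 were higher and their median was 0.23, against 50.1% higher among well expressed genes. Past 1.5-fold on this scale were 2.84% of well expressed genes in the higher direction and 3.22% in the lower. For single genes the trend mattered more. Atf5 and Cebpb, with 61.7% and 67.2% GC, went from -0.53 to -0.08 and from -0.48 to -0.02. Both lie past the last point of the trend, at 60.9% GC, so its end value was held for them. Their corrected values, that of Cebpb above all, are extrapolated. Chac1, with 57.4% GC, went from 0.48 to 0.76, which is past 1.5-fold, and Slc7a11, with 40.7% GC, from -0.58 to -0.80. Atf4 changed sign to 0.14 and Phgdh to 0.17, while Mthfd2 at 0.61, Asns at 0.45 and Cth at 0.79 stayed within their counting intervals. Psat1, at 0.50, lay below its interval.

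**Figure D4:**
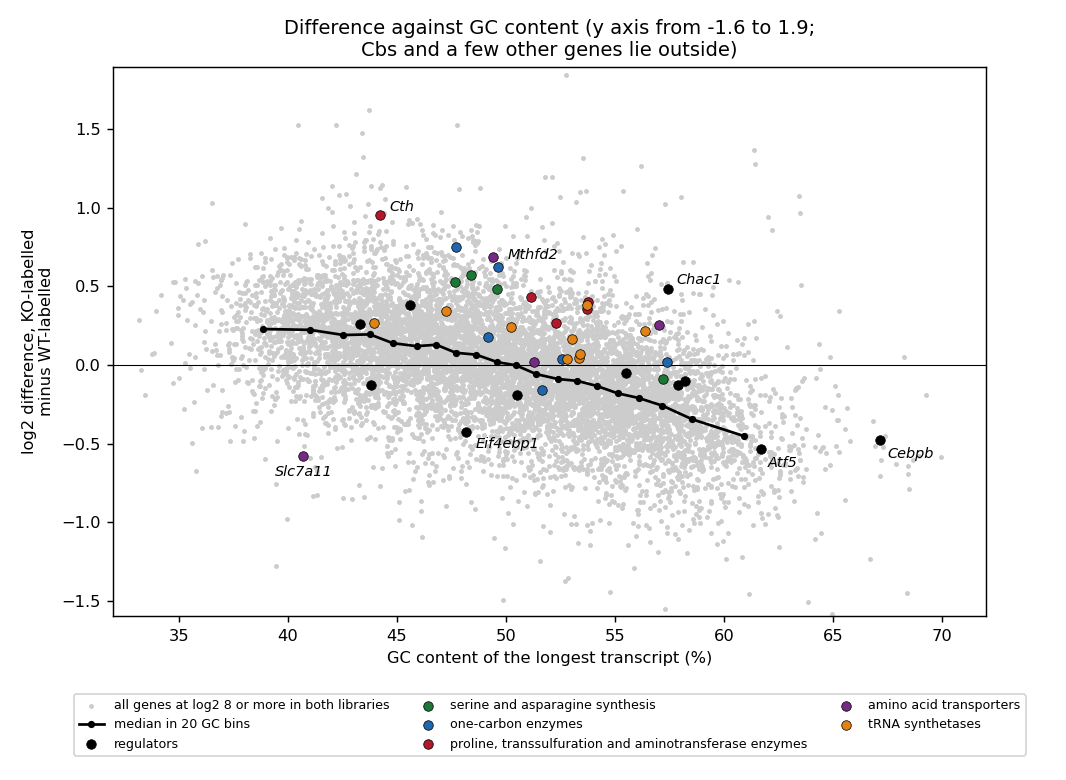
Log2 difference (y axis, KO-labelled minus WT-labelled) against GC content of the longest transcript (x axis, percent) for the 40 genes, coloured by role, over well expressed genes (grey), with the medians of 20 GC bins (black line). The line falls from 0.23 to -0.45 and ends at 60.9% GC. Atf5 and Cebpb lie past its end, near its last level, while Chac1 lies well above the line and Slc7a11 well below.

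Other genes of the pathway were counted from lists of the same kind. For comparison with the counts of each list, 48% of all genes above 0 in both libraries were higher, and 48.8% of well expressed genes. Of 12 genes for eIF2α, eIF2 kinases, eIF2B and eIF2 phosphatase subunits, 9 were higher and 3 lower. Past 1.5-fold were 2, Eif2s1, which encodes eIF2α (10.60 and 11.27, difference 0.67), and Eif2ak2, the kinase PKR (8.55 and 9.20, difference 0.66), against 3.95% of well expressed genes. With the GC trend removed these went to 0.44 and 0.47, and 0 of the 12 passed 1.5-fold. Eif2ak3, the kinase PERK, was 9.31 and 9.74 (0.43). Of 19 other ATF4 target genes above 0, 15 were higher and 4 lower, with a median of 0.18. The 3 past 1.5-fold all had few reads and were higher, namely Nupr1 from 14 and 49 reads (1.74, interval 0.92 to 2.78), Gadd45a from 89 and 154 (0.78, interval 0.40 to 1.18) and Gdf15 from 4 and 7 (0.68, interval -1.17 to 3.02), against 11.2% of genes above 0 in both libraries. The well expressed ones that differed most were Xpot, a tRNA export factor, at 12.39 and 12.83 (0.44), Herpud1, a gene of ER-associated degradation, at 11.95 and 12.25 (0.30), and Nfe2l2, the antioxidant factor NRF2, at 10.50 and 10.22 (-0.28). Fgf21 was listed at 0 in both libraries.

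Of 14 other cytosolic synthetases and scaffold proteins, 9 were higher and 5 lower with a median of 0.23, so they were not all higher as the 9 above. Rars, for arginine, was 10.32 and 10.84 (0.52), Lars, for leucine, was 9.97 and 10.45 (0.47), and Vars, for valine, was 15.20 and 14.61 (-0.59), which went to -0.14 without the GC trend. Vars was the 1 gene of this list past 1.5-fold on the deposited values, where 6.29% of well expressed genes were lower by as much. Of 17 mitochondrial synthetases, 9 were higher and 8 lower with a median of 0.05, and none was past 1.5-fold. Nars2, for asparagine, was 8.58 and 9.11 (0.53), Lars2, for leucine, was 11.60 and 11.13 (-0.47), and Sars2, for serine, was 11.12 and 10.71 (-0.41), which went to 0.01 without the GC trend. No test of a difference between these lists was made.

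Of 20 other folate, methionine and purine enzymes, 15 were higher and 5 lower, with a median of 0.14. Past 1.5-fold was 1, Gldc, which was higher from 3 and 17 reads (2.175, interval 0.71 to 4.91), against 11.2% of genes above 0 in both libraries. The well expressed ones with the largest differences were Mtrr, the reductase of methionine synthase, at 11.50 and 12.01 (0.51), Slc25a32, the mitochondrial folate carrier, at 9.24 and 9.70 (0.46), and Ppat, which commits to purine synthesis, at 10.77 and 11.10 (0.32). Of 20 other amino acid enzymes above 0, 11 were higher and 9 lower, with a median of 0.14. Ass1, which makes argininosuccinate from citrulline, was 13.64 and 12.63, a difference of -1.01, where 0.743% of well expressed genes were lower by 2-fold or more. The difference went to -0.85 with the GC trend removed and passed 2-fold neither there nor under quantile normalization or Actb scaling. Arg2, with 0 reads in the WT-labelled and 6 in the KO-labelled library, was past 2-fold higher (2.76), as were 7.1% of genes above 0 in either library. Oat, ornithine aminotransferase, was 11.18 and 11.73 (0.55).

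**Figure D5:**
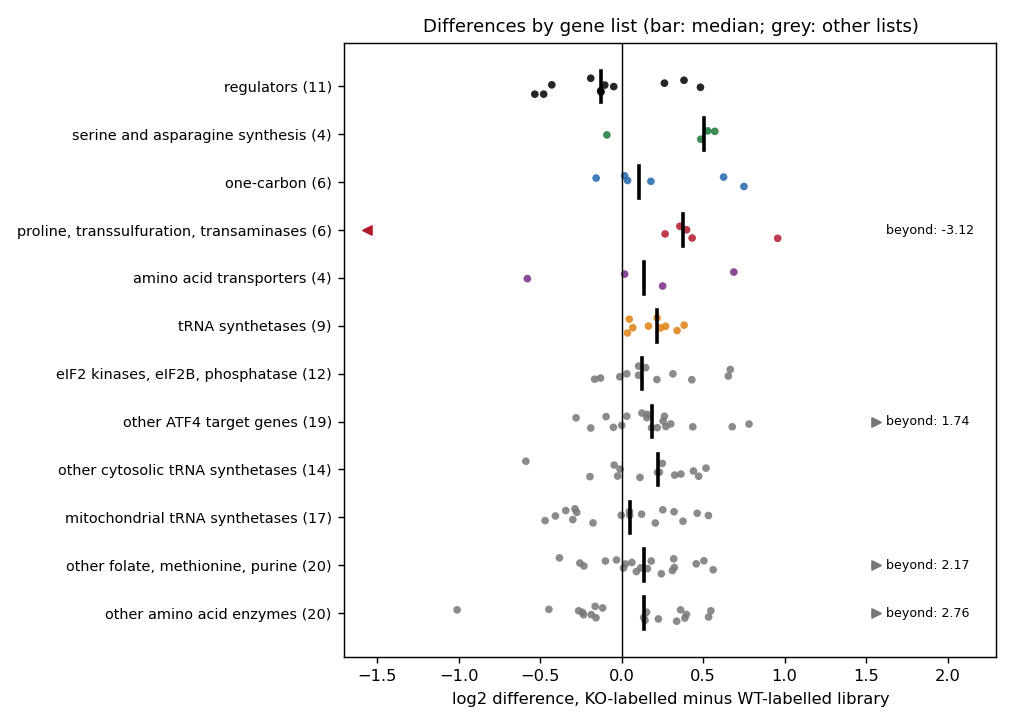
Log2 differences (x axis, KO-labelled minus WT-labelled) of single genes by list, with the number of genes in brackets and the median as a black bar. The 6 upper lists are the 40 genes by role and the grey lists are other genes of the pathway, and triangles stand for genes beyond 1.5 on the log2 scale with their values printed at the right. On the deposited values shown, the tRNA synthetases are the only list with every gene right of 0. All 4 serine and asparagine genes were higher too under quantile normalization, Actb scaling and GC correction. All 6 one-carbon enzymes were higher under quantile normalization.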

How the data were processed

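RNA of 1 WT Th1 and 1 Chi3l1 KO Th1 sample was sequenced from oligo-dT selected libraries (SENSE mRNA-Seq kit, paired ends). Per the submitters' processing notes and methods, the authors mapped reads with TopHat to mm10 and counted unique and multiple alignments for edgeR, and a global normalization between samples is described. Genes with near-identical copies may therefore share reads. The paper's methods also name cufflinks for abundances and FPKM for expression levels, a unit other than the one inferred below. The annotation and the use of strand are not given in the sources used here.

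The authors deposited 1 log2 value per gene, taken here as a normalized count with 1 added before the log, which was inferred from the values. With the log undone, 99.97% and 99.83% of values between 0.5 and 40 fell within 0.1 of whole multiples of 0.969 (WT) and 0.967 (KO), taken as 1 read, and rebuilt counts are the values divided by these steps and rounded. No count test was run.

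Differences were taken as deposited. Gene positions, transcript length and GC content (longest transcript) came from GENCODE M21 (GRCm38, the same build as mm10). Exon overlaps were counted over all annotated transcripts, and 11 of the 40 genes share bases with another listed gene. The GC trend was the median difference in 20 bins over well expressed genes (8 or more in each library). It was interpolated between bins, held at the end values beyond them, and subtracted. Promoters came from RefSeq (GRCm38.p6).

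All 40 genes were named, and of each other list the 3 well expressed genes with the largest absolute difference, with genes of few reads past 1.5-fold beside them. A gene and a sequence that these rules would name are not reported here. Genes, lists and lines were chosen with earlier results of these data known. Alternatives were median-ratio and quantile scaling, scaling to Actb, the GC correction, a pseudocount of 0.1, a floor of 6 on the log2 value, and other motif windows. Scripts were tested on simulated data. The tools were scipy 1.17.1, numpy 2.4.6 and pandas 2.3.3 under Python 3.11.15, with figures by matplotlib 3.10.9.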

Additional observations from a re-analysis of the deposited data

How the results depend on the processing

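With 1 library per genotype, the counts of genes past a fold line describe these libraries alone, and depth limits Cbs and Aldh1l2 most. No paired analysis was possible because each genotype has 1 sample. Scaling to Actb, which was 18.99 and 18.87, moved the median of well expressed genes from -0.01 to 0.10. It moved the median of the 40 genes from 0.20 to 0.31, genes higher at 1.5-fold from 4 to 8, and genes higher at 2-fold from 0 to 1. With the GC trend removed, genes lower at 1.5-fold went from 1 to 2, by Slc7a11. A floor of 6 in both libraries leaves out Cbs, so that 0 genes were lower at either line. Median-ratio scaling, quantile normalization and the pseudocount kept each of these counts within 1.5 times and the median between 0.20 and 0.23. No gene past 1.5-fold changed direction under any alternative. Of the smaller differences, Atf4 and Phgdh changed sign under quantile normalization, Actb scaling and GC correction, Trib3 under the latter pair, Mthfd1l under quantile normalization and Ddit4 under the GC correction. The core TGATGNAA was found for 8 of 33 genes in the bases before the start alone, and the shorter TGATGNA for 15.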
